A study of Mus musculus with 6 samples.

Results

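The genes described here are the 3 D-type cyclins (*Ccnd1*, *Ccnd2* and *Ccnd3*), inhibitors of cyclin-dependent kinases (CDKs) from the CIP/KIP family (*Cdkn1a*, *Cdkn1b* and *Cdkn1c*) and the INK4 family (*Cdkn2b* and *Cdkn2c*), and the stress-inducible gene *Gadd45b*. They were chosen by gene symbol from a list of 10 genes, of which 9 were analysed among 20327 gene symbols and 1 was not analysed here. IL-11 is a cytokine of the IL-6 family, and the study sorted the colon cells that switch on its gene during colitis in order to learn how they differ from neighbouring stromal cells. All libraries came from C57BL/6 mice with the *Il11-Egfp* transgene, 9 to 15 weeks old, which drank 1.5% dextran sulfate sodium (DSS, a colitis-inducing polymer) for 5 days and then plain water, and whose colons were taken on day 7. Live cells lacking CD45, CD31, EpCAM and Ter119 were sorted by EGFP fluorescence into positive cells (EGFP+, taken as IL-11+) and negative cells (EGFP-, IL-11-), and 3 libraries of each were sequenced by 5′Tag-seq, which reads tags near the 5′ end of the mRNA from amplified cDNA. The EGFP- cells carried the same transgene and received the same DSS treatment, so the comparison holds no untreated mice. The reporter is a bacterial artificial chromosome transgene with *Egfp* placed in *Il11*, kept as 1 selected line, so that a cell counts as IL-11+ by its EGFP. The labels number the replicates without saying that they are separate animals, while the methods name 3 mice.

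D-type cyclins are made when growth factors reach a resting cell, and they switch on CDK4 and CDK6, which phosphorylate the retinoblastoma protein and so free E2F factors to start DNA replication. INK4 proteins bind CDK4 and CDK6 and keep the cyclin out, whereas CIP/KIP proteins bind cyclin-CDK complexes, block CDK2 and also help cyclin D complexes to assemble. In fibroblasts of injured tissue these inhibitors are known for holding cells in a resting, differentiated or senescent state, and several of them, like the GADD45 genes, are also induced quickly by stress.

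The labels were checked first. *Il11* had 28, 51 and 89 tags in EGFP- replicates 1 to 3 and 1357, 732 and 2658 tags in EGFP+ replicates 1 to 3, and every EGFP+ library was above every EGFP- library (log2 fold change 4.98 ± 0.39 SE). Of the markers used to gate cells out, CD45, CD31 and EpCAM were near 0, with at most 7 tags of *Ptprc* (CD45), 1 of *Pecam1* (CD31) and 1 of *Epcam* in any library. Ter119 was not checked in this way. Erythroid markers summed to 90.7, 0 and 305 CPM in EGFP- and 19.1, 2.03 and 19.1 CPM in EGFP+ replicates 1 to 3. Library totals ran from 1022851 to 1169817 tags. A count of 0 in such a library allows up to 3 tags, or 2.56 to 2.93 CPM (tag counts scaled to a common library total). After the normalization used for the CPM values below, 3 tags are 2.46 to 3.18 CPM. This floor covers counting error only, since tags without molecular barcodes do not tell PCR copies from separate molecules. The intervals below also include the spread between libraries.

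Of the 8 members that passed the filter of at least 10 tags in at least 3 of 6 libraries, 3 were lower in EGFP+ cells and 0 were higher, where a call required a Benjamini-Hochberg adjusted p below 0.05 from the quasi-likelihood test of edgeR and a fold change over 2. These were *Ccnd1*, *Cdkn1a* and *Cdkn1c*. Among all 9334 genes tested the same rule called 6.37% lower and 3.44% higher. *Ccnd1* entered the test only because it was high in EGFP- cells, so the count of 3 gives no support of its own for a change of the members as a group. No member was higher at an unadjusted p below 0.05 or by DESeq2 either (0 each), and DESeq2 also called 3 lower. In 5 of the 8 members the 3 EGFP+ libraries all lay below the 3 EGFP- libraries, a pattern found in 16.7% of all tested genes, and in 0 members did they all lie above. In bulk RNA of sorted cells, fewer cells of a type and less RNA per cell cannot be told apart. Without EGFP- replicate 2 the count of members called lower was 1, because *Ccnd1* then missed the adjusted p (0.0535) and *Cdkn1c* both the adjusted p (0.0539) and the fold of 2 (log2 fold change −0.995), while *Cdkn1a* was called without any 1 of the 6 libraries.

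**Figure D1:**
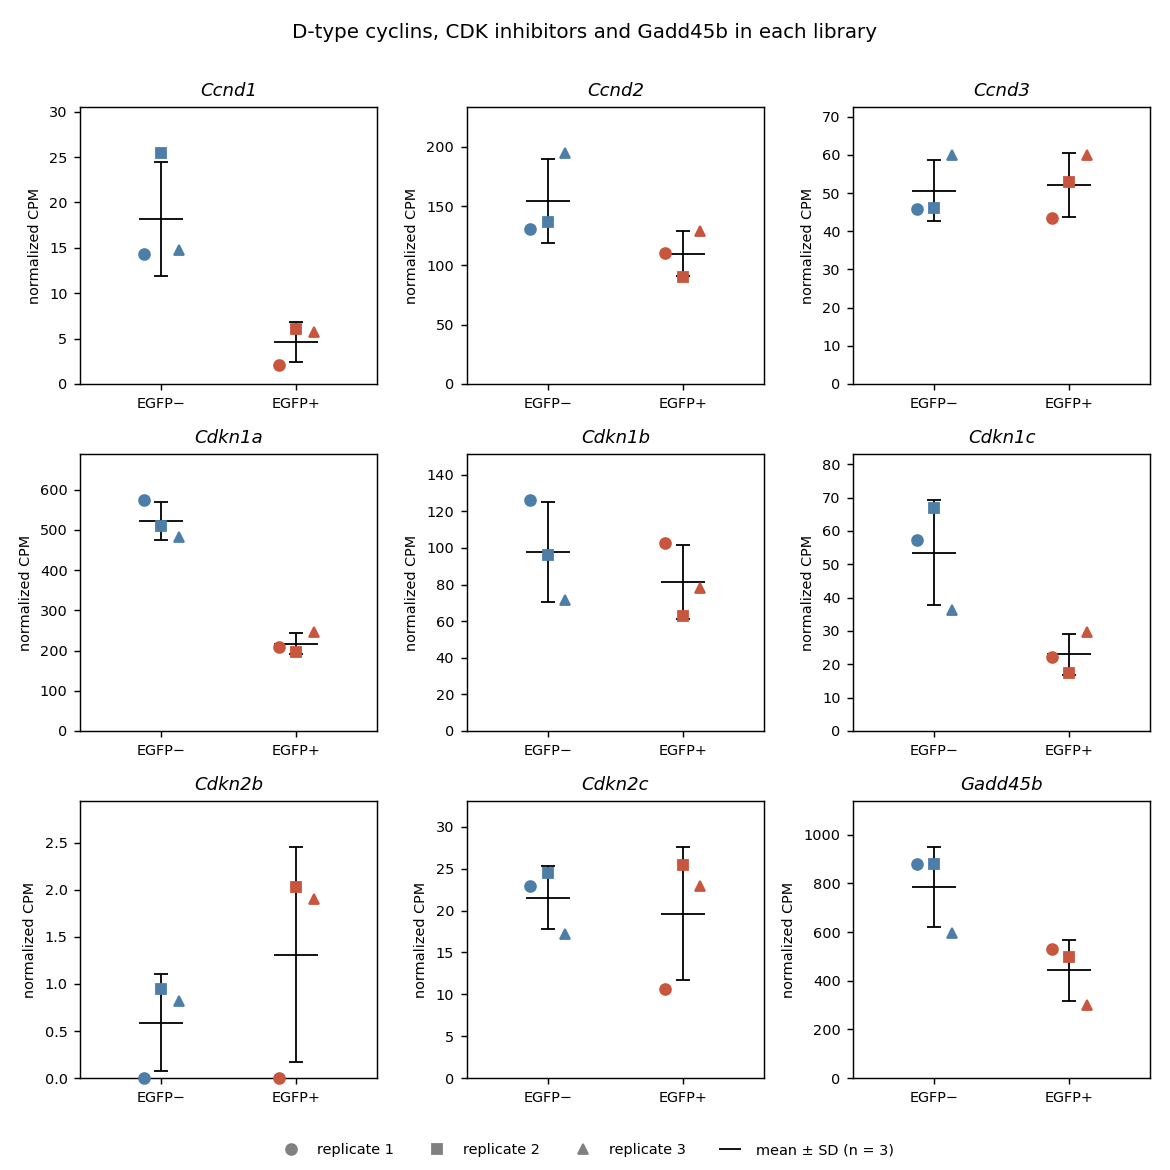
Each panel shows 1 gene, with normalized CPM on a linear axis from 0 and 1 point per library, shaped by replicate number; black bars are the mean ± SD of 3 libraries. The EGFP+ libraries all lie below the EGFP- libraries for *Ccnd1*, *Ccnd2*, *Cdkn1a*, *Cdkn1c* and *Gadd45b*, whereas *Ccnd3*, *Cdkn1b*, *Cdkn2b* and *Cdkn2c* overlap.

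Of the 3 D-type cyclins, 1 was called. *Ccnd1* encodes cyclin D1, whose gene answers to RAS-ERK, WNT and adhesion signals, and lies on chromosome 7 at 144929931 to 144939831 (GRCm38.p6). It had 15, 27 and 18 tags in EGFP- replicates 1 to 3 and 2, 6 and 6 tags in the EGFP+ ones. All EGFP+ libraries were under all EGFP- libraries, and the gene passed the filter through the EGFP- libraries alone. With no filter it was called as well (adjusted p = 0.00118), but that fit used the same libraries and gives no separate support. The mean of *Ccnd1* went from 18.2 ± 6.29 CPM (SD, n = 3) in EGFP- cells to 4.64 ± 2.19 CPM in EGFP+ cells, 3.79-fold lower (log2 fold change −1.92 ± 0.46 SE, adjusted p = 0.00651). These are few tags, and EGFP- replicate 2 held the most of them. Without that library the log2 fold change was −1.60 (adjusted p = 0.0535, against 0.00118 to 0.0535 over all settings tried).

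*Ccnd2*, on chromosome 6 at 127125162 to 127152188, encodes cyclin D2. It had 137, 145 and 237 tags in EGFP- and 104, 89 and 135 tags in EGFP+ replicates 1 to 3. After normalization the highest EGFP+ library (129 CPM) lay just under the lowest EGFP- library (131 CPM), so the groups met without overlapping. The means were 154 ± 35.3 and 110 ± 19.2 CPM and the difference did not pass the test (log2 fold change −0.49 ± 0.19 SE, adjusted p = 0.104). Same-numbered libraries gave log2 ratios of −0.24, −0.59 and −0.59, and with the replicate number as block the adjusted p passed (0.0245), at a fold still under 2.

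Cyclin D3, the product of *Ccnd3* on chromosome 17 at 47505051 to 47599689, is the D-type cyclin best known from lymphoid cells and from differentiating tissue. Its gene had 48, 49 and 73 tags in EGFP- and 41, 52 and 63 tags in EGFP+ libraries. Replicate 3 was the highest in both groups and the groups overlapped throughout, at 50.6 ± 8.05 and 52.1 ± 8.33 CPM (log2 fold change 0.04 with a 95% confidence interval of −0.42 to 0.49, adjusted p = 0.938). That interval holds no change of 2-fold in either direction, and the sign turned in 5 of 15 settings, as far as −0.08 without EGFP+ replicate 3. As a share of all D-type cyclin tags in a library, *Ccnd1* made up 8.40 ± 3.45% in EGFP- cells and 2.79 ± 1.37% in EGFP+ cells, *Ccnd3* 22.8 ± 1.03% and 31.4 ± 3.77%, and *Ccnd2* 68.8 ± 3.33% and 65.8 ± 5.11%. The 3 genes together summed to 223 ± 41.2 CPM in EGFP- cells and 167 ± 24.5 CPM in EGFP+ cells. Whether the cyclins differed from each other in their change was not tested.

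Among the CIP/KIP inhibitors *Cdkn1a* showed the clearest difference. It encodes p21, the inhibitor switched on by p53 and by many p53-independent stress and differentiation signals, from chromosome 17 at 29090979 to 29100722. There were 601, 542 and 588 tags in EGFP- replicates 1 to 3 and 196, 194 and 259 tags in EGFP+ replicates 1 to 3. The libraries of each group lay close together with a wide gap between the groups: the lowest EGFP- library had 483 CPM and the highest EGFP+ library 247 CPM. The means of 522 ± 46.6 and 217 ± 26.3 CPM differed 2.40-fold (log2 fold change −1.26 ± 0.17 SE, adjusted p = 2.71e-05), EGFP+ cells being lower, which ranked 174 of 9334 genes by p.

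*Cdkn1c* encodes p57, an inhibitor expressed from the maternal allele and linked to cell cycle exit in differentiating cells; it lies on chromosome 7 at 143458339 to 143461059. Its tags were 60, 71 and 44 in EGFP- and 21, 17 and 31 in EGFP+ replicates 1 to 3. The EGFP+ libraries were all lower, but replicate 3 came close, being the lowest of the EGFP- cells (36.1 CPM) and the highest of the EGFP+ cells (29.6 CPM). Within same-numbered libraries the log2 ratio of CPM + 1 was accordingly −1.33, −1.89 and −0.28 for replicates 1, 2 and 3. From 53.4 ± 15.7 to 23.0 ± 6.19 CPM, the log2 fold change was −1.20 ± 0.28 SE, 2.29-fold lower (adjusted p = 0.00614). It was −0.995 without EGFP- replicate 2 (adjusted p = 0.0539, against 0.000457 to 0.0808 over all settings).

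p27, the product of *Cdkn1b*, restrains CDK2 in resting cells and is controlled mainly by degradation of the protein. The gene, on chromosome 6 at 134920401 to 134925525, had 132, 102 and 87 tags in EGFP- and 97, 62 and 82 tags in EGFP+ libraries. Replicate 1 was the highest in both groups, and the groups overlapped at 97.9 ± 27.3 and 81.3 ± 20.1 CPM (log2 fold change −0.26 ± 0.22 SE, adjusted p = 0.502). The estimate depended on single libraries, being −0.04 without EGFP- replicate 1 and −0.46 without EGFP+ replicate 1. The CIP/KIP genes together summed to 674 ± 83.4 CPM in EGFP- cells and 322 ± 40.0 CPM in EGFP+ cells. Of those tags, *Cdkn1a* gave 77.8 ± 3.45% and 67.7 ± 4.63%, *Cdkn1b* 14.3 ± 2.27% and 25.2 ± 4.93%, and *Cdkn1c* 7.87 ± 1.92% and 7.08 ± 1.11%. In every library *Cdkn1a* thus supplied most CIP/KIP tags, with a smaller share in each EGFP+ library than in any EGFP- library.

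INK4 inhibitors were present at few tags. *Cdkn2c*, which encodes p18 and lies on chromosome 4 at 109660876 to 109666756, had 24, 26 and 21 tags in EGFP- and 10, 25 and 24 tags in EGFP+ libraries. EGFP+ replicate 1 was the low one, and the others of both groups lay together (21.6 ± 3.81 and 19.6 ± 7.91 CPM, log2 fold change −0.12 ± 0.33 SE, adjusted p = 0.869). Without EGFP+ replicate 1 the sign turned, at 0.18. *Cdkn2b*, which encodes p15 and is a classical TGF-β target, lies on chromosome 4 at 89306289 to 89311032 and had 0, 1 and 1 tags in EGFP- and 0, 2 and 2 tags in EGFP+ libraries. All of these are under the floor of 3 tags, so the gene was too low to compare at this depth. No fold is given (exact permutation test over libraries, two-sided p = 0.4, where 3 against 3 cannot give less than 0.1). A further INK4 gene, *Cdkn2d* (p19), had 21, 29 and 14 tags in EGFP- and 12, 7 and 7 tags in EGFP+ libraries. Its groups overlapped in CPM, and its log2 fold change of −1.14 ± 0.41 SE missed the threshold (adjusted p = 0.0738). In the fit that blocks on replicate number it passed (adjusted p = 0.0375), as it did without EGFP- replicate 3 (adjusted p = 0.0234), against 0.0234 to 0.325 over all settings. Among the INK4 genes tested, 0 of 2 were called in either direction by edgeR or DESeq2, and 1 was lower at an unadjusted p below 0.05.

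GADD45 proteins bind CDK1 and p21 and activate the kinase MAP3K4 upstream of p38 and JNK. *Gadd45b*, induced by TGF-β, NF-κB and cytokines, lies on chromosome 10 at 80930091 to 80932204. Counts of 920, 933 and 725 tags in EGFP- and 500, 490 and 315 tags in EGFP+ replicates 1 to 3 were found. Replicate 3 was the lowest of each group, and its EGFP- library (595 CPM) still exceeded the highest EGFP+ library (530 CPM). The mean was 784 ± 164 CPM in EGFP- and 443 ± 124 CPM in EGFP+ cells, and the log2 fold change of −0.83 ± 0.21 SE passed the adjusted p (0.0115) but, at 1.77-fold, not the fold of 2. That adjusted p was lost without EGFP- replicate 1 (0.0573) or 2 (0.0802) and without EGFP+ replicate 3 (0.0503), and ran from 3.85e-06 to 0.357 over all settings. By adjusted p alone 4 of the 8 tested members were lower, *Gadd45b* among them, against 8.70% of all tested genes. With the replicate block, *Ccnd2* joined them to make 5, against 11.2% of all tested genes. Same-numbered libraries gave log2 ratios of −0.73, −0.82 and −0.98, so that each replicate showed the lower value in EGFP+ cells.

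Of the relatives of *Gadd45b*, 1 was called. *Gadd45g*, the family member known for neuronal and T helper cell responses, had 667, 700 and 694 tags in EGFP- and 192, 200 and 179 tags in EGFP+ libraries. All EGFP+ libraries were far below all EGFP- libraries, from 622 ± 46.6 to 192 ± 18.8 CPM (log2 fold change −1.69 ± 0.17 SE, 3.23-fold lower, adjusted p = 9.7e-07). *Gadd45a*, the p53-responsive member, had 113, 109 and 145 tags in EGFP- and 82, 71 and 121 tags in EGFP+ libraries; its groups overlapped (log2 fold change −0.26 ± 0.19 SE, adjusted p = 0.419). Summed over the family, EGFP- libraries held 1516 ± 201 CPM and EGFP+ libraries 727 ± 124 CPM. *Gadd45g* went from 41.3 ± 2.73% to 26.7 ± 2.18% of GADD45 tags, and *Gadd45b* from 51.3 ± 4.33% to 60.1 ± 7.66%.

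**Figure D2:**
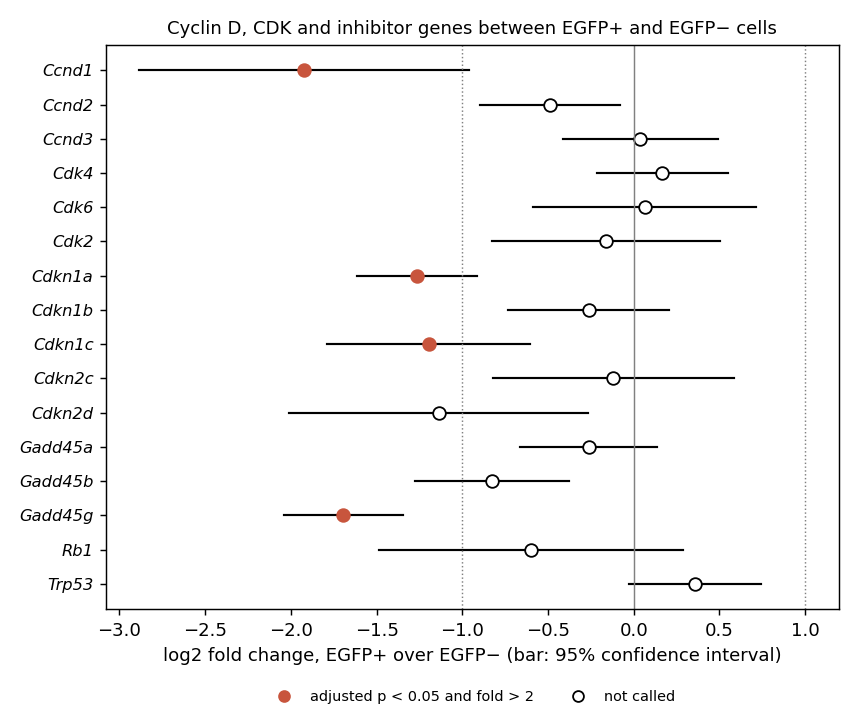
Log2 fold changes of EGFP+ over EGFP- cells (horizontal axis) with 95% confidence intervals for the tested members and genes of related role; filled points passed both the adjusted p and the fold of 2, and dotted lines mark 2-fold. *Ccnd1*, *Cdkn1a*, *Cdkn1c* and *Gadd45g* are filled on the lower side, and the intervals of *Cdk4*, *Cdk6*, *Cdk2* and *Ccnd3* include 0.

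The kinases that these proteins act on were not called in either direction. *Cdk4*, the main partner of D-type cyclins, had 83, 87 and 116 tags in EGFP- and 80, 88 and 119 tags in EGFP+ libraries (log2 fold change 0.17 ± 0.18 SE, adjusted p = 0.62). *Cdk6* had a log2 fold change of 0.06 ± 0.31 SE and *Cdk2* of −0.16 ± 0.32 SE, and the direction of *Cdk6* turned with scaling by library totals only (−0.02), without EGFP- replicate 3 (−0.08) and without EGFP+ replicate 2 (−0.09). The list of G1 kinases and parts of the CDK-activating kinase also holds *Cdc37*, which is neither. Of its 7 genes, all tested (median log2 fold change 0.10), 0 were called in either direction by edgeR or DESeq2 and 0 had an unadjusted p below 0.05. The smallest p belonged to *Mnat1*, the assembly factor of the CDK-activating kinase (0.52 ± 0.34 SE), and *Cdk4*. The estimate for *Mnat1* was 1.03 without EGFP- replicate 1 (adjusted p = 0.0705) and 0.27 without EGFP- replicate 3, and that for *Cdk4* was 0.02 without EGFP+ replicate 3. Cyclins of S phase and mitosis and *Cdk1* lay near the floor: of 7 listed genes, 0 passed the filter, and *Ccne2* (cyclin E2), the one with the most tags, had at most 6 in any library. Their summed level was 9.74 ± 2.10 CPM in EGFP- and 8.14 ± 4.35 CPM in EGFP+ cells, so a difference in these 7 genes was not detectable at this depth. *Mki67*, the gene of the proliferation antigen Ki-67, had 0, 3 and 1 tags in EGFP- and 5, 2 and 5 tags in EGFP+ libraries.

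Downstream of the kinases, 9 of 13 listed genes of pocket proteins and E2F/DP factors passed the filter, and 1 was called higher and 1 lower (median log2 fold change 0.07, which turned to −0.02 with library totals only). *E2f4*, a repressor E2F of resting cells, had 21, 18 and 24 tags in EGFP- and 32, 33 and 69 tags in EGFP+ libraries. Every EGFP+ library was higher, and replicate 3 most so (log2 fold change 1.23 ± 0.30 SE, adjusted p = 0.0078; 0.83 and 0.0795 without EGFP+ replicate 3, the range over all settings being 0.000234 to 0.0825). *Rbl2* encodes p130, the pocket protein that joins E2F4 in resting cells. It had 54, 35 and 35 tags in EGFP- and 21, 9 and 20 tags in EGFP+ libraries, with no overlap (log2 fold change −1.15 ± 0.33 SE, adjusted p = 0.0225; 0.14 without EGFP- replicate 1 and 0.126 without EGFP+ replicate 2, both with a fold under 2, the range being 0.00223 to 0.167). The retinoblastoma gene *Rb1* had 5 to 19 tags per library and overlapping groups (−0.60 ± 0.42 SE, adjusted p = 0.404). Of the MuvB core, which binds p130 and E2F4 to form the DREAM repressor, 3 of 5 genes were tested and 0 were called by edgeR or DESeq2 or had an unadjusted p below 0.05. *Lin37* (log2 fold change 0.08 ± 0.41 SE) and *Lin54* (−0.05 ± 0.40 SE) had its smallest p-values, and the sign of each turned in 2 of 14 settings. Their median of −0.002 turned sign with size factors by relative log expression (RLE; 0.01).

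Of 19 listed replication and mitosis genes 7 passed the filter, with 1 called lower (0 by DESeq2), 0 higher (0 also by unadjusted p and by DESeq2) and a median log2 fold change of −0.33. *Rrm1*, the large subunit of ribonucleotide reductase, had 13, 28 and 41 tags in EGFP- and 11, 9 and 9 tags in EGFP+ libraries. All EGFP+ libraries were lower, although EGFP- replicate 1 came close (log2 fold change −1.31 ± 0.39 SE, adjusted p = 0.0267). Its call ended without EGFP- replicate 2 (adjusted p = 0.094) or 3 (0.154) and without EGFP+ replicate 2 (0.0913) or 3 (0.0751), and by DESeq2 (0.0634), with a fold under 2 without EGFP- replicate 3 (log2 fold change −0.98), the range over all settings being 0.00568 to 0.154.

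The tumor suppressor p53 is the best known activator of *Cdkn1a*. *Trp53* itself had 63, 64 and 84 tags in EGFP- and 75, 88 and 78 tags in EGFP+ libraries; the EGFP+ libraries were all higher in CPM, but the difference did not pass the test (log2 fold change 0.36 ± 0.18 SE, adjusted p = 0.226). Of 20 genes listed as p53 and its targets, 17 were tested, 2 were called lower and 1 higher, and the median log2 fold change was −0.11. With library totals only 3 were lower, and with the replicate block 3 were as well, the added one being *Sesn1*, a sestrin gene (73, 22 and 18 against 16, 15 and 13 tags, groups overlapping, adjusted p = 0.0131 with the block and 0.0885 without). *Btg2*, an antiproliferative gene induced by p53 and by growth factors, had 1669, 1973 and 1738 tags in EGFP- and 539, 706 and 801 tags in EGFP+ libraries, without overlap (−1.25 ± 0.18 SE, 2.38-fold lower, adjusted p = 6.23e-05). *Plk2*, a stress-responsive kinase gene, went the other way, with 79, 90 and 82 tags in EGFP- and 322, 326 and 303 tags in EGFP+ libraries (2.08 ± 0.17 SE, 4.22-fold higher, adjusted p = 1.61e-07). The third was *Trp53inp1*, an autophagy and stress gene, with 137, 75 and 43 tags in EGFP- and 48, 18 and 21 tags in EGFP+ libraries. Its groups overlapped between replicates (−1.41 ± 0.40 SE, adjusted p = 0.0214), and its call ended without EGFP- replicate 1 (0.195) or 2 (0.0539), without EGFP+ replicate 2 (0.121) or 3 (0.0759) and by DESeq2 (0.23), the range over all settings being 7.15e-07 to 0.23. The log2 fold change of *Trp53inp1* was −0.83, under 2-fold, without EGFP- replicate 1 and −2.01 without EGFP+ replicate 1. *Mdm2*, the p53 target that encodes its ubiquitin ligase, had a mean of 62.1 CPM in EGFP- and 62.9 CPM in EGFP+ cells; it is named here after its values were seen.

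Regulators acting on the members were given by list. The list of FOXO, SMAD, MYC and MIZ1 regulators also holds *Klf4*, which belongs to none of these families. Of the 10 tested genes of that list (11 listed, median log2 fold change −0.08), 2 were called lower, *Klf4* among them, and 0 higher (0 also by unadjusted p and by DESeq2). *Klf4*, a transcription factor that activates *Cdkn1a*, had 652, 783 and 559 tags in EGFP- and 216, 229 and 254 tags in EGFP+ libraries, a clear separation (−1.37 ± 0.18 SE, 2.58-fold lower, adjusted p = 3.35e-05). *Myc*, a factor known to repress CIP/KIP and INK4 genes through MIZ1, had 114, 83 and 120 tags in EGFP- and 47, 46 and 43 tags in EGFP+ libraries (−1.06 ± 0.20 SE, 2.08-fold lower, adjusted p = 0.000943). The groups of *Myc* did not overlap, and its fold fell under 2 without EGFP- replicate 1 (log2 fold change −0.95) or EGFP+ replicate 3 (−0.98). Tested against a fold change of 1.5, *Myc* was no longer called (adjusted p = 0.0536). Polycomb repressors, which silence the INK4 locus, had 2 of 7 tested genes lower (8 listed, median −0.12) and 0 higher, with 1 higher at an unadjusted p below 0.05 and 0 by DESeq2 in either direction. These were *Ezh2*, the histone H3 methyltransferase (23, 14 and 24 tags in EGFP- and 6, 9 and 6 tags in EGFP+ libraries, −1.36 ± 0.39 SE, adjusted p = 0.0236), and *Cbx7*, a reader of its mark (30, 31 and 32 against 11, 8 and 20 tags, −1.09 ± 0.33 SE, adjusted p = 0.0286). In both the groups were apart, and *Ezh2* passed the filter through the EGFP- libraries alone (with no filter, adjusted p = 0.0252). The fit with no filter used the same libraries and gives no separate support for *Ezh2*. The call of *Ezh2* ended without EGFP- replicate 1 (adjusted p = 0.0997) or 3 (0.0653) and without EGFP+ replicate 1 (0.0736) or 3 (0.0774), the range being 0.0166 to 0.122, and that of *Cbx7* without EGFP- replicate 1 (0.0758) or 2 (0.0906) and without EGFP+ replicate 1 (0.0878) or 2 (0.142, log2 fold change −0.84), the range being 0.00872 to 0.211.

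Parts of the ubiquitin ligases that degrade D-type cyclins or CIP/KIP proteins had 1 of 9 tested genes lower (11 listed, median log2 fold change −0.01, which turned to 0.004 with RLE size factors) and 0 higher, with 1 higher at an unadjusted p below 0.05 and 0 by DESeq2. *Fbxo31*, which targets cyclin D1 after DNA damage, had 42, 20 and 13 tags in EGFP- and 3, 3 and 14 tags in EGFP+ libraries. EGFP+ replicate 3 exceeded EGFP- replicate 3 and the groups overlapped (−1.76 ± 0.54 SE, adjusted p = 0.0336), and the call ended without EGFP- replicate 1 (0.258) or 2 (0.0613) and without EGFP+ replicate 1 (0.13) or 2 (0.15), the range being 0.000618 to 0.258. The log2 fold change itself ran from −1.12 without EGFP- replicate 1 to −2.83 without EGFP+ replicate 3. Kinase partners of GADD45 had 0 of 6 tested genes called by edgeR or DESeq2 (7 listed, median 0.19), 1 of them lower at an unadjusted p below 0.05: *Mapk14*, the p38α gene (29, 35 and 43 against 23, 18 and 20 tags, −0.64 ± 0.27 SE, adjusted p = 0.131). *Map3k4*, the kinase that GADD45 proteins open, had the next smallest p (−0.54 ± 0.29 SE, adjusted p = 0.253). The groups of both did not overlap, nor did those of *Map2k3*, a p38-activating kinase gene named after its values were seen, which was not called and had higher values in EGFP+ cells (19, 22 and 27 against 25, 31 and 29 tags, 0.48 ± 0.27 SE, adjusted p = 0.28).

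*Cdkn1c* sits in an imprinted domain of chromosome 7 whose genes share a control region. Of 8 listed neighbours 5 were tested, 1 was called lower and 0 higher (0 also by unadjusted p and by DESeq2), with a median log2 fold change of −0.64. *Cd81*, a tetraspanin gene at the edge of the domain, had 111, 118 and 191 tags in EGFP- and 40, 38 and 91 tags in EGFP+ libraries, which did not overlap (−1.15 ± 0.26 SE, 2.22-fold lower, adjusted p = 0.00387). Its fold fell under 2 without EGFP- replicate 3 (log2 fold change −0.95), EGFP+ replicate 1 (−0.98) or EGFP+ replicate 2 (−0.94). *Cd81* was also not called when tested against a fold change of 1.5 (adjusted p = 0.0725). *Kcnq1ot1*, the long noncoding RNA that silences the domain on the paternal chromosome and the gene of this list with the most tags, had 1148, 894 and 782 tags in EGFP- and 918, 669 and 785 tags in EGFP+ libraries. Its groups overlapped (log2 fold change −0.10 ± 0.20 SE, adjusted p = 0.803). *Cdkn1c* and *Kcnq1ot1* were not tested against each other.

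**Figure D3:**
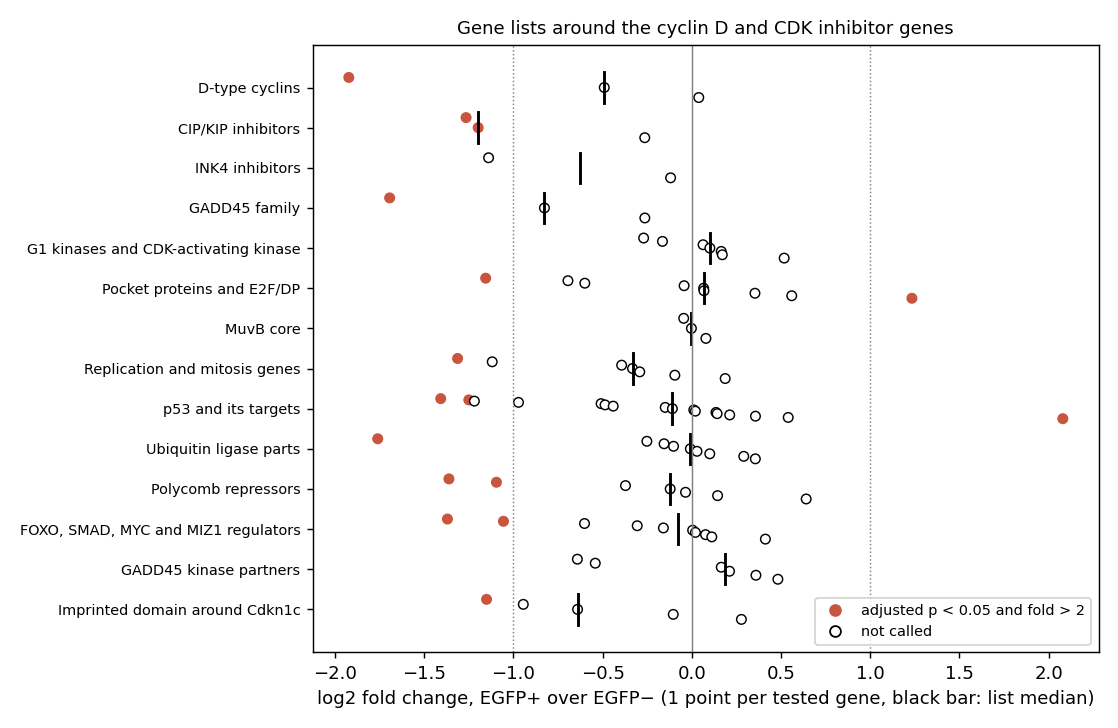
Log2 fold changes of EGFP+ over EGFP- cells (horizontal axis) for each tested gene of the lists around the members, with 1 point per gene, filled where called, and a black bar at each list's median. The medians of the CIP/KIP list (−1.20) and the GADD45 list (−0.83) lie to the left of those of the G1 kinases (0.10) and of the p53 list (−0.11). In between lie those of the imprinted domain (−0.64), INK4 (−0.63), D-type cyclin (−0.49), replication and mitosis (−0.33) and Polycomb (−0.12) lists. The median of all tested genes was −0.01.

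For each called member the 3 genes of most similar pattern were found over the 6 libraries, by the root mean square difference of centred log2(CPM + 1) leaving out genes whose mean was under 30 tags. *Cdkn1a* was nearest to *Scn7a*, a sodium channel gene (0.07), to *Sbno2*, a transcriptional coregulator induced by IL-10 family signals (0.12), and to *Gucy1a1*, a subunit of soluble guanylate cyclase (0.13). *Scn7a* fell by 1.32 on the log2 scale from 290 to 116 CPM, close to the change of *Cdkn1a*. *Cdkn1c* lay nearest to *Gcc1* (0.11), *Helz2* (0.19) and *Sema5a* (0.19), and *Ccnd1* nearest to *Rrad* (0.22), *Tppp3* (0.25) and *Fgd5* (0.26). All 9 of these genes were called lower in EGFP+ cells, which follows from how they were picked. *Helz2* was no longer called without EGFP- replicate 2 (log2 fold change −0.97) or EGFP+ replicate 2 (−0.83). The genes near *Ccnd1* lay at larger distances, and the part of its few tags in this was not tested.

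Promoters are shown for *Cdkn1a*, the member with the smallest p, and for *Gadd45b* and *Gadd45g*, so that the 2 GADD45 genes can be read side by side, as RefSeq gives them for GRCm38.p6, with 250 bases before and 50 after the annotated start. RefSeq promoters were matched for 6 of the 9 members. Each window was searched on both strands for 5 motifs; matches are in capitals and none of them overlap. The GC box has the letters GGGCGG and occurs in 35.7% of 32851 promoter windows of the same length. The E-box bound by MYC and MAX, CACGTG, occurs in 7.15% of them, and the TATA box, read as TATAAA, in 13.6%. The AP-1 site was searched as TGANTCA (7.81% of windows) and the STAT site as TTCNNNGAA (8.30% of windows).
*Cdkn1a*, chr17:29093519-29093818, plus strand: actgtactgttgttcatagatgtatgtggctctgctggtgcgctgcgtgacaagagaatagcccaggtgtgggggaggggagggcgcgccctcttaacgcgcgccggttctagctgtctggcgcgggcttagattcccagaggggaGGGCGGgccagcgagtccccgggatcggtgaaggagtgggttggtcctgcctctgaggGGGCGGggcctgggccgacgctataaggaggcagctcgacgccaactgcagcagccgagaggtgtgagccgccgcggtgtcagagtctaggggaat
*Gadd45b*, chr10:80929841-80930140, plus strand: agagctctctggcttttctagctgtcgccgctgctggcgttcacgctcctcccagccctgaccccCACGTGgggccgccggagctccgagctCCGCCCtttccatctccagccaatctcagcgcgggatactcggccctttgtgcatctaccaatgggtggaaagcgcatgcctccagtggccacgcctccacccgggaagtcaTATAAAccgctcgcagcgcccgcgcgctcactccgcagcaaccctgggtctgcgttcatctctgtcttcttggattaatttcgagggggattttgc
*Gadd45g*, chr13:51846425-51846724, plus strand: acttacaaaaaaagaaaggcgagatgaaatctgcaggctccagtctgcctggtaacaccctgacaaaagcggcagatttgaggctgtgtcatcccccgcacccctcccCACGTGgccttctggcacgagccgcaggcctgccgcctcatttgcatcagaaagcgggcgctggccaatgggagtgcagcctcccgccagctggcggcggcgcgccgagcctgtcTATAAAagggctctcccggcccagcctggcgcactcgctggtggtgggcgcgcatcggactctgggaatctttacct
The *Gadd45b* window holds 1 E-box, 1 GC box and 1 TATA box, and the *Gadd45g* window 1 E-box and 1 TATA box. The *Gadd45a* window (chr6:67037358-67037657, minus strand) holds 1 GC box and neither of the other 2. In *Cdkn1a* there are 2 GC boxes at the start shown, which was chosen after the other annotated start (chr17:29090729-29091028) was seen to hold 0 matches. AP-1 and STAT letters have 0 matches in these 3 windows, and a match or its absence describes the letters only.

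Markers of other stromal cells moved with the same comparison. Of 12 pericyte and smooth muscle markers, all tested, 10 were called lower in EGFP+ cells and 0 higher (0 by DESeq2). The other 2, named after their values were seen, are subunits of a potassium channel of pericytes and were higher in EGFP+ cells by adjusted p alone, under 2-fold: *Kcnj8* (145, 115 and 100 against 213, 191 and 125 tags, groups overlapping, log2 fold change 0.71, adjusted p = 0.0394, unadjusted p = 0.0056) and *Abcc9* (325, 275 and 267 against 469, 391 and 373 tags, groups apart, 0.66, adjusted p = 0.0167). *Cnn1* and *Notch3*, among the 10, passed the filter through the EGFP- libraries alone. The summed level of the list was 4668, 4820 and 5370 CPM in EGFP- replicates 1 to 3 and 1025, 923 and 991 CPM in EGFP+ replicates 1 to 3, and 0 of the 12 markers had no tag in all libraries. *Rgs5*, the marker with the most tags, had 1951, 1700 and 1800 tags in EGFP- and 186, 174 and 206 tags in EGFP+ libraries, and *Myh11*, the smooth muscle myosin gene, 850, 943 and 1332 against 18, 18 and 84. Their part in the lower *Ccnd1*, *Cdkn1a*, *Cdkn1c* and *Gadd45b* was not tested. The same holds for interstitial cells of Cajal, whose markers *Kit*, *Ano1* and *Etv1* were all called lower (3 of 3; *Etv1* fell by under 2-fold, with a log2 fold change of −0.91, without EGFP- replicate 1; *Kit* passed the filter through the EGFP- libraries alone; summed 271, 168 and 258 against 21.2, 20.3 and 50.5 CPM, most tags in *Ano1*, at 152, 93 and 196 against 1, 0 and 15).

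Fibroblast markers were abundant in both groups. Of 10, all tested, 2 were called higher in EGFP+ cells (*Col3a1* and *Pdpn*) and 0 lower (0 by DESeq2). By adjusted p alone 4 were higher, with *Dcn* (log2 fold change 0.67, adjusted p = 0.0462) and *Thy1* (65, 59 and 125 against 130, 112 and 165 tags, groups apart, 0.88, adjusted p = 0.00832) added, and 2 were lower with groups apart; *Thy1* and these 2 are named after their values were seen: *Dpt*, the dermatopontin gene (2852, 3037 and 3385 against 1085, 1539 and 1677 tags, log2 fold change −0.96, adjusted p = 0.000826), and *Lum*, the lumican gene (1072, 1296 and 2153 against 681, 902 and 992 tags, −0.64, adjusted p = 0.0378). With library totals only the list had 0 higher and 1 lower. The summed level was 24845, 24968 and 27415 CPM in EGFP- and 43376, 35520 and 31912 CPM in EGFP+ replicates 1 to 3. *Dcn*, the decorin gene with the most tags of the list, had 14029, 11620 and 14508 tags in EGFP- and 24693, 16830 and 15091 tags in EGFP+ libraries, higher in each EGFP+ library but under 2-fold. The folds of *Pdpn* and *Col3a1* were just over 2 and fell under it with library totals only (log2 fold changes 0.97 and 0.96) and without EGFP- replicate 1 (0.96 and 0.85), and that of *Pdpn* also without EGFP+ replicate 1 (0.96). The part of fibroblast or endothelial cells in the members' differences was not tested either.

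Few markers of endothelial, immune, epithelial, mesothelial and erythroid cells reached the filter. Of 8 endothelial markers 1 was tested and called lower, *Tek* (33, 24 and 42 against 17, 7 and 5 tags, log2 fold change −1.59 and, without EGFP+ replicate 1, −2.30, adjusted p = 0.0085, and 0.0529 without EGFP+ replicate 2, the highest over all settings, of which the lowest was 0.000368); the list summed to 39.1, 26.4 and 44.3 CPM in EGFP- and 20.1, 14.2 and 12.4 CPM in EGFP+ libraries. In EGFP- libraries most of the endothelial sum was *Tek* itself, at 31.5, 22.6 and 34.5 CPM in replicates 1 to 3. In EGFP+ replicates 1 to 3 *Tek* had 18.0, 7.11 and 4.77 CPM. Of 10 immune, 8 epithelial, 4 mesothelial and 5 erythroid markers 0 passed the filter. Summed over immune markers, the libraries held 22.0, 22.6 and 18.1 CPM in EGFP- and 41.3, 19.3 and 17.2 CPM in EGFP+ replicates 1 to 3, with most tags over all 6 libraries in *Cd68* and, in EGFP+ cells, in *S100a8* (13, 1 and 12 tags). Epithelial markers summed to 3.82, 1.88 and 18.9 against 2.12, 3.05 and 4.77 CPM (most tags over all 6 libraries in *Krt8* and, in EGFP- cells, in *Krt19*, with 0, 1 and 8) and mesothelial markers to 13.4, 4.71 and 15.6 against 0, 0 and 1.91 CPM (most tags in *Wt1*). Erythroid markers, led by *Hbb-bs*, varied between replicates in both groups, at 90.7, 0 and 305 CPM in EGFP- and 19.1, 2.03 and 19.1 CPM in EGFP+ libraries. EGFP- replicate 3 was the highest in epithelial, mesothelial and erythroid markers. Without it the 3 members called lower were still called. That fit cannot decide on a part of these cells, because EGFP- replicate 1 stayed in it. EGFP- replicate 1 also held mesothelial (13.4 CPM) and erythroid (90.7 CPM) markers. The part of these cells in the members' differences was not tested.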

How the data were processed

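5′Tag-seq tags from sorted colon cells were measured, and the per-gene tag counts deposited by the authors were used as they are. According to the submitters' notes, reads were trimmed with Cutadapt 1.18 and mapped with Bowtie2 2.2.5, to 1 strand only, against RefSeq mm10 RNA, and compared in R 3.5.1 with TCC and edgeR. How tags mapping to several genes were counted is not given in the sources used here. The counts were analysed in R 4.3.3 with edgeR 4.0.16, limma 3.58.1 and DESeq2 1.42.0. Genes reaching 10 tags in 3 or more of the 6 libraries (9334 genes) were kept, library sizes were taken over these genes, and normalization used the trimmed mean of M-values (TMM). Differences were tested by the quasi-likelihood test of edgeR, and p was adjusted by the Benjamini-Hochberg method over all tested genes; a gene was called at an adjusted p below 0.05 and a fold change over 2. Same-numbered libraries deviated together from their group means (r = 0.231, 0.209 and 0.270 for replicates 1 to 3, over the 5064 genes averaging 30 tags or more), and the methods name 3 mice, so the numbers were taken to pair the libraries and a replicate block was tried. Unless a setting is named, values come from the fit without block, which does not use this pairing. Other alternatives were RLE size factors, library totals only, iterative TMM, DESeq2, 2 other filters, adjusted p alone, a test against a fold change of 1.5, and leaving out each library.

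The listed genes and the gene lists around them were chosen with earlier results of these data known. Named were the members, genes of related role, up to 6 called genes per direction in each list, the 2 of smallest p where none was called, and the genes of most similar pattern. Positions and promoters are those of RefSeq for GRCm38.p6. The scripts were tested on simulated data. Without a simulated mouse effect, the fit without block recovered 142 of 187 changed genes and the blocked fit 127. With a mouse effect, whose size was not taken from these libraries, the fit without block recovered 0 of 181 and the blocked fit 132.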

Additional observations from a re-analysis of the deposited data

How the results depend on the processing

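The members' log2 fold changes took 119 values over the alternatives: 109 kept direction and side of the threshold, 3 were weaker, 1 was stronger and 6 reversed. Among 47 other genes picked by the naming rule, 627 of 689 values kept both, 53 were weaker, 2 stronger and 7 reversed. *Cdkn1a* was called in all alternatives. With 1 library left out at a time, the members called lower ranged from 1 to 3, and log2 fold changes from −2.14 to −1.59 for *Ccnd1*, −1.42 to −0.995 for *Cdkn1c*, −0.0775 to 0.183 for *Ccnd3*, −0.33 to 0.18 for *Cdkn2c*, −0.0875 to 0.232 for *Cdk6*, −0.18 to 0.33 for *Lin37* and −0.37 to 0.19 for *Lin54*; without a change of sign or call, they ranged from −0.62 to −0.28 for *Ccnd2*, −0.46 to −0.04 for *Cdkn1b*, −0.47 to −0.11 for *Gadd45a*, 0.02 to 0.25 for *Cdk4*, −0.30 to −0.05 for *Cdk2*, −0.79 to −0.37 for *Rb1* and 0.27 to 1.03 for *Mnat1*. *Ccnd3* also reversed with library totals only (−0.0411) and with at least 10 tags in all 6 libraries (−0.0020), and *Cdk6* with library totals only (−0.0179); the cause was not tested. Tested against a fold change of 1.5, *Cdkn1c* (−1.20, adjusted p = 0.0808) was no longer called and 378 genes were lower instead of 595, because the test is stricter by construction. Among the other named genes, it ended the calls of *E2f4*, *Rbl2*, *Rrm1*, *Trp53inp1*, *Fbxo31*, *Ezh2*, *Cbx7*, *Myc*, *Cd81*, *Col3a1*, *Etv1* and *Helz2*. By adjusted p alone *Gadd45b* (−0.83) was called and 638 genes were higher instead of 321, because no fold was required. Requiring 10 tags in all 6 libraries left 256 genes lower instead of 595 and 220 higher instead of 321. Fewer genes were tested, and those with under 10 tags in any EGFP+ library were left out, so that *Ccnd1* had no value. With the replicate block 337 genes were higher and 648 lower, 3 members were called lower as before, and among the named genes the block changed only the calls of *Cdkn2d* (adjusted p = 0.0375) and *Sesn1* (0.0131) and no other. The share of lower genes among all calls was 65.0% with TMM, 64.4% with RLE size factors, 72.1% with library totals only and 66.1% with iterative TMM. Depth leaves *Cdkn2b*, *Mki67* and the cyclins of S phase and mitosis at few tags and untested, and the low counts of *Ccnd1* and *Cdkn2c* give wide intervals.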
